A study of Mus musculus with 244 samples.

Results

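Cd74-high regression macrophages are single cells sorted from mouse aortic arches during regression of atherosclerosis in which Cd74 stood at 100 RPKM or more, a read level that allows for transcript length and sequencing depth. Cd74 encodes the invariant chain, the chaperone of MHC class II molecules. Of 113 regression cells with at least 1000 genes at 1 RPKM or more, 65 met this rule and 48 Cd74-low cells did not, a share of 57.5% (exact Clopper-Pearson 95% interval 47.9 to 66.8%). All 241 cells of the series came from 244 libraries. Cd74 itself chose the cells and is therefore described once and not compared: it ran from 117 through a median of 3665 to 31830 RPKM in the high cells and was at 0 in 26 of the 48 low cells. The 3 low cells nearest the threshold held 93.6, 90.2 and 86.5 RPKM, and the 3 high cells nearest it held 117, 148 and 153 RPKM.

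MHC class II molecules are pairs of an alpha and a beta chain that carry peptides from endocytosed protein to the surface of antigen-presenting cells, where CD4+ T cells read them. The invariant chain holds new pairs together and blocks their groove until lysosomal proteases cut it away. H2-DM then exchanges the last fragment for peptide, and the transactivator Ciita switches the whole set of genes on together. In arterial plaques class II marks a portion of the macrophages and the dendritic cells, and monocytes gain it as they mature in tissue.

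Regression was modelled by transplanting plaque-bearing arches of Apoe-/- donors, kept for 16 weeks on a high fat diet, into WT mice fed chow, and the arches were taken 3 days later. Baseline cells came from donors of the same genotype and diet. Cells of both conditions were sorted as CD45+CD11b+ F4/80+ and each library is the full-length cDNA of 1 cell. No animal is named in the labels, so the regression cells count as 1 sample: values below are compared by size and by overlap between cells, without tests, and intervals on shares cover counting error only.

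The sort genes were in place in the high cells. Ptprc, which encodes CD45, was listed (1 RPKM or more) in 64 of 65 high and 43 of 48 low cells, Itgam (CD11b) in 60 and 47, and Adgre1 (F4/80) in 53 and 38. All 65 high and all 48 low cells listed at least 3 of 10 macrophage markers, led by Lyz2 with a median of 11384 RPKM in high cells. Apoe, deleted in the donors, was listed in 65 of 65 high and 47 of 48 low cells, at means of 12.07 and 11.58 on the log2(RPKM + 1) scale. The high cells listed a median of 2399 genes (1311 to 4119) and the low cells 2257.5 (1142 to 4107). Ribosomal protein genes held a median of 13.3% of a high cell's RPKM against 12.9%, and mitochondrial genes 7.56% against 8.67%. Estimated depth had medians of 0.948 M reads in the 40 high cells and 0.920 M reads in the 24 low cells for which it could be found.

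Cells 1 to 20, 93 to 111 and 168 to 244, as numbered in the sample titles, form 3 separate stretches of regression cells. High cells made up 11 of 20 (55.0%), 14 of 18 (77.8%, 52.4 to 93.6%) and 40 of 75 (53.3%). High cells listed more genes than low cells at the median in each stretch, by 2670 to 2306, 2259.5 to 1814 and 2420.5 to 2285. The labels do not say what distinguishes the stretches, and the 4 low cells of the middle stretch make every difference within it a comparison with 4 cells.

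The class II chain genes lie side by side on chromosome 17 of mm10: H2-Ab1 (gene ID 14961) at chr17:34257689-34269419, H2-Aa (14960) at chr17:34282744-34287823 and H2-Eb1 (14969) at chr17:34305867-34316674. The 130 bases before the annotated start of H2-Aa (chr17:34287824-34287953, minus strand) and of H2-Eb1 (chr17:34305737-34305866, plus strand) are shown because these chains, with H2-Ab1, separate the high from the low cells most widely, and class II promoters share a short block of boxes through which Ciita's partners act; the H2-Ab1 promoter was not analysed here. Sequences are from RefSeq (GRCm38.p6) and capitals mark the X box core AACNGATG, the cyclic AMP response element TGACGTCA, known as the X2 box, and the Y box TGATTGG.
H2-Aa: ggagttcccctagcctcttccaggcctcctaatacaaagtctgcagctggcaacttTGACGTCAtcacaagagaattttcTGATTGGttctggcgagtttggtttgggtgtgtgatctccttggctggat
H2-Eb1: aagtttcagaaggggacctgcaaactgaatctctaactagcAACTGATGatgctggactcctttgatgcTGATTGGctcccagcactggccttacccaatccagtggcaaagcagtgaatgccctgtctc
In H2-Aa the response element begins 74 bases and the Y box 50 bases before the start, and in H2-Eb1 the X box core begins 89 and the Y box 61 bases before it, with no overlap between boxes. Searched on both strands of 250 bases before each start, the X box core was in 1.98%, the response element in 1.55% and the Y box in 7.23% of 32851 promoters. The H2-DMb1 window held the X box core and the Y box, and those of H2-DMa and Ccr2 held none of the 3. A match describes letters and no binding was measured here.

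Class II chains were the widest difference between the classes. H2-Ab1, a beta chain, ran from 0 through a median of 2174 to 20671 RPKM in high cells and from 0 through 0.57 to 485 RPKM in low cells. H2-Aa, its alpha partner, ran from 0 through 3096 to 32415 RPKM in high cells and from 0 through 0 to 1142 RPKM in low cells. H2-Eb1, the beta chain of the other pair, ran from 0 through 1801 to 9860 RPKM and from 0 through 0 to 225 RPKM. All 3 were high in most Cd74-high cells and absent or low in most Cd74-low cells, yet the ranges overlapped, because 3, 9 and 11 high cells were at 0 for H2-Ab1, H2-Aa and H2-Eb1. On the log2(RPKM + 1) scale H2-Ab1 averaged 9.90 ± 3.92 (SD, n = 65 cells) against 1.38 ± 2.27 (n = 48), a difference of 8.52. The H2-Aa mean was 9.48 ± 4.83 against 1.18 ± 2.29, a difference of 8.31. For H2-Eb1 the means were 8.30 ± 4.78 and 0.58 ± 1.58, a difference of 7.72. Of all pairs of 1 high and 1 low cell, the high cell had more H2-Ab1 in 93.7%, more H2-Aa in 89.0% and more H2-Eb1 in 88.3%, with ties shared equally. Because these genes were proposed as markers of the cells, their direction describes the class and supports nothing further.

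The chains were usually present together. All 3 were listed in 51 of 65 high cells (78.5%, 66.5 to 87.7%) and in 2 of 48 low cells (4.17%, 0.509 to 14.3%). All 3 stood at 100 RPKM or more in 45 high cells and 1 low cell. Among high cells the complete set was found in 10 of 11 cells of the first stretch, 14 of 14 of the second and 27 of 40 of the third. The 3 high cells with no chain listed were all in cells 168 to 244, and their Cd74 ran from 117 to 348 RPKM. Across the 65 high cells H2-Aa ranked with H2-Ab1 (Spearman's rho 0.89) and H2-Eb1 (0.92), values that share each cell's library and depth and are given as a description.

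**Figure D1:**
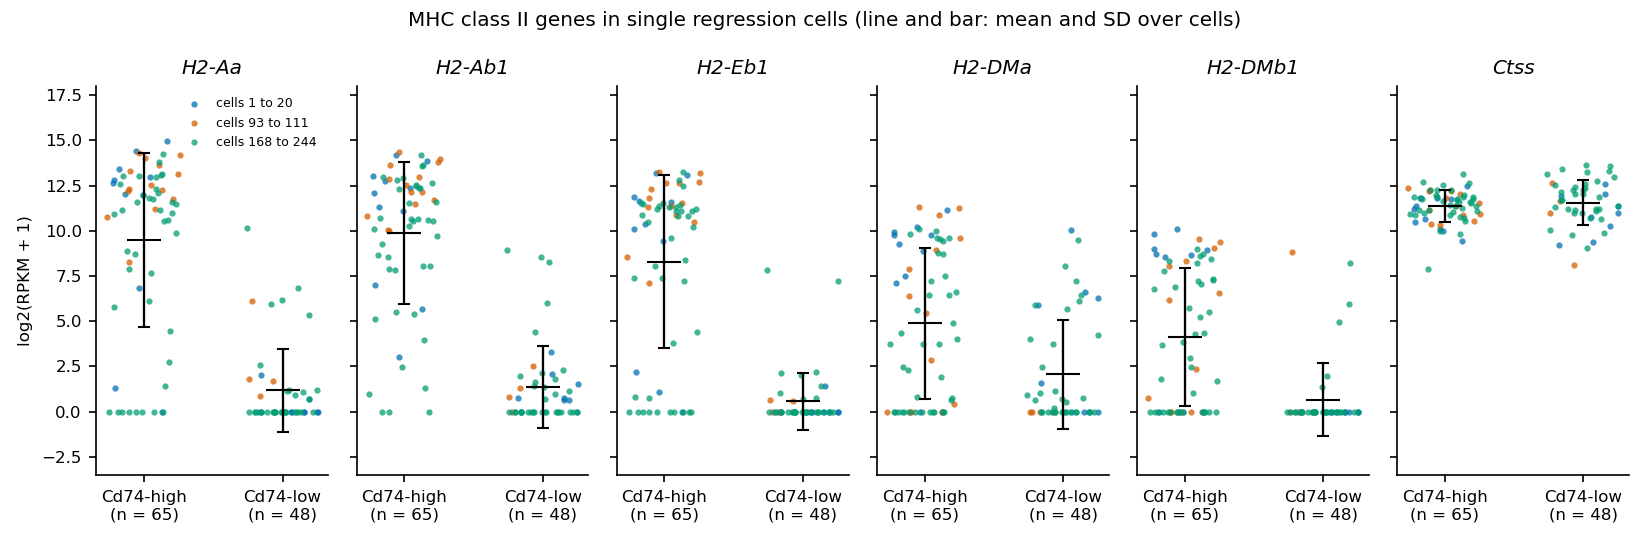
Level of 6 class II pathway genes as log2(RPKM + 1) in each regression cell, for 65 Cd74-high and 48 Cd74-low cells, with colour for the stretch of sample numbers and the line and bar for the mean and SD over cells. Most high cells lie above most low cells for H2-Ab1, H2-Aa and H2-Eb1, with 3, 9 and 11 high cells at 0, while H2-DMa and H2-DMb1 overlap more and Ctss has means of 11.36 and 11.55.

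The peptide-loading genes followed in part. H2-DMb1, the beta chain of the exchange factor H2-DM (chr17:34153072-34160230), ran from 0 through 13.7 to 1099 RPKM in high cells and from 0 through 0 to 449 RPKM in low cells. It was listed in 40 of 65 high cells (61.5%) and 6 of 48 low cells (12.5%), a mean difference of 3.47. H2-DMa, the alpha chain (chr17:34119541-34139101), ran from 0 through 28.6 to 2533 RPKM in high cells and from 0 through 0.079 to 1043 RPKM in low cells, a difference of 2.80. Both were absent from a large minority of high cells, and their ranges overlapped those of the low cells. H2-DMb2, a second beta chain of H2-DM, was listed in 14 high and 2 low cells. Ciita was listed in 8 high cells (up to 90.6 RPKM) and 0 of 48 low cells, and its mean difference was 0.50. H2-Ob, a chain of the H2-O inhibitor of loading, was at 0 in all 113 cells, and its partner H2-Oa was listed in 2 high cells.

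Lysosomal enzymes that cut the invariant chain or the antigen were not set apart in the same way. Ctss, the protease that trims the invariant chain, was listed in all 113 cells, with medians of 2962 RPKM in high and 3271 RPKM in low cells and a difference of -0.19. Ifi30, the lysosomal thiol reductase, had medians of 248 and 111 RPKM and a difference of 1.26. Lgmn, an asparaginyl protease, differed by 0.50 and Ctsl, another cathepsin, by -0.65. In the 3 stretches in order Lgmn differed by 1.69, 3.15 and -0.52, Ctsl by 1.12, 0.72 and -1.06, and Ctss by 0.06, 0.58 and -0.34. These proteases were thus lower in high cells only in cells 168 to 244. Of the 12 class II chain and loading genes found in 5% or more of either class, 10 were above 0 and 5 were past 2, with a median difference of 0.95. Over all 9026 genes passing that filter, 59.4% were above 0, 0.155% were at 2 or more, 0.0665% were at -2 or below and the median difference was 0.09.

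A wider set of genes separated high from low cells with much more overlap. Among 3986 genes found in 25% or more of either class, 14 (0.351%) had a mean at least 2 higher on the log2(RPKM + 1) scale in high cells, a quantity that understates differences of low genes, and 6 (0.151%) had a mean at least 2 lower. The median difference of all 3986 was 0.16, with 61.9% above 0 and 38.1% below. This background itself moved: it was -0.05 with 46.9% above 0 in cells with at least 2000 genes, and -0.10 with 42.0% above 0 at a Cd74 threshold of 1000 RPKM. The sign was the same in all 3 stretches for 12 of the 14 and 4 of the 6. Both counts depended on the third stretch: without cells 168 to 244, which leaves 25 high and 13 low cells, they were 150 and 67, and Btg2, Tmem14c, Tmem176a and Spp1 were no longer past the threshold. Without cells 1 to 20 the lower genes were 3, and Arg1 and Spp1 but not Pf4, Ccl24, Pdpn or Saa3 were still past the threshold. H2-Ab1, H2-Aa and H2-Eb1 stayed past it in 16 of 16 alternative settings.

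**Figure D2:**
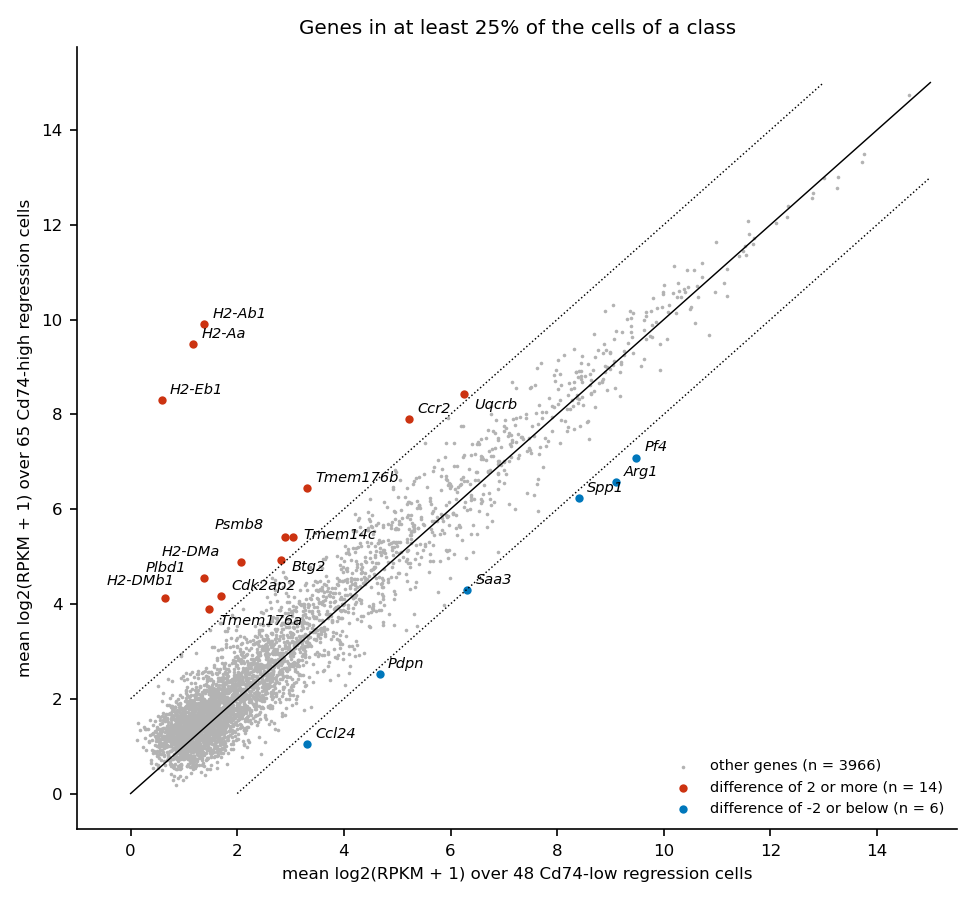
Mean log2(RPKM + 1) over 65 Cd74-high regression cells (vertical axis) against that over 48 Cd74-low cells (horizontal axis) for 3986 genes. Dotted lines mark a difference of 2 in either direction, past which lie 14 higher genes, headed by H2-Ab1, H2-Aa and H2-Eb1, and 6 lower genes.

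Outside the class II set, the higher genes included a monocyte chemokine receptor, membrane proteins and parts of the proteasome and mitochondria. Ccr2, the receptor through which monocytes are recruited by Ccl2 (chr9:124101950-124113557), ran from 0 through 323 to 2608 RPKM in high cells and from 0 through 86.7 to 1442 RPKM in low cells. It was listed in 63 of 65 high and 37 of 48 low cells, and averaged 7.90 ± 2.24 (SD, n = 65 cells) against 5.23 ± 3.44 (n = 48), a difference of 2.67. Nearly every high cell carried the transcript, but so did most low cells. The difference was 3.30, 2.42 and 2.47 in the 3 stretches in order. Of the cells at 0, 10 were low and 1 was high, and a low level and a failed detection cannot be told apart in them.

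Plbd1, a phospholipase B domain protein of the lysosome, was listed in 42 high and 13 low cells, with medians of 28.0 and 0 RPKM and a difference of 3.18. Tmem176b, a membrane protein known from immature dendritic cells and macrophages, was listed in 49 high and 22 low cells (medians of 267 and 0 RPKM), a difference of 3.14. Its neighbour and partner Tmem176a was listed in 35 and 12 cells, a difference of 2.43. Both genes of this pair were more often found in high cells, but in cells 93 to 111 Tmem176a differed by -2.82 and Tmem176b by 0.69. The 2 genes lie on opposite strands and share chr6:48840919-48841496, so reads there could count for either. Psmb8, a subunit of the immunoproteasome encoded in the MHC region (chr17:34197721-34201454), differed by 2.50 overall and by -0.41 in cells 93 to 111.

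The remaining higher genes have roles outside antigen presentation. Cdk2ap2, a regulator of cell cycle kinase Cdk2, was listed in 46 high and 17 low cells, a difference of 2.47. Tmem14c, a mitochondrial membrane protein needed for haem synthesis, was listed in 51 and 26 cells, a difference of 2.36 that was 0.76 in cells 1 to 20 and 0.33 as the log2 ratio of mean RPKM. Uqcrb, a subunit of respiratory complex III, had medians of 658 and 186 RPKM, a difference of 2.18. Btg2, an early response gene, had medians of 43.7 and 1.65 RPKM, a difference of 2.10. None of these 4 was confined to a class: each was listed in at least 17 low cells. High cells were also cut to those with the fewest genes listed, as many as there were low cells in each stretch. Tmem14c and Btg2 were then not past the threshold, nor were Ccl24 and Saa3 among the lower genes.

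The genes lower in high cells were led by Arg1, the arginase of alternatively activated macrophages (chr10:24915221-24927484). It ran from 0 through 203 to 7481 RPKM in high cells and from 0 through 1199 to 8513 RPKM in low cells. Arg1 averaged 6.58 ± 4.33 (SD, n = 65 cells) against 9.10 ± 3.90 (n = 48), a difference of -2.52, and the ranges overlapped almost throughout. It reached 100 RPKM in 36 of 65 high cells (55.4%, 42.5 to 67.7%) and 39 of 48 low cells (81.2%, 67.4 to 91.1%). By stretch the difference was -3.45, -1.98 and -1.59, and without cells 93 to 111 Arg1 and Saa3 were not past the threshold.

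Secreted proteins made up most of the rest. Pf4, a CXC chemokine, had medians of 505 and 2659 RPKM in high and low cells and a difference of -2.39. Spp1, the matrix protein osteopontin, had medians of 77.3 and 975 RPKM and a difference of -2.17, but in cells 93 to 111 it differed by 1.23. Ccl24, a chemokine for eosinophils, was listed in 10 of 65 high and 21 of 48 low cells, a difference of -2.25. Its gap was widest in cells 1 to 20 (-5.77) and smallest in cells 168 to 244 (-1.11). Saa3, an acute phase protein, was listed in 26 high and 30 low cells, a difference of -2.03, and its highest value, 50211 RPKM, was in a high cell. Pdpn, the membrane glycoprotein podoplanin, was listed in 21 and 30 cells, a difference of -2.15 that was 0.38 in cells 93 to 111. These genes were thus less frequent or lower in high cells without being absent from them.

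The next lowest genes stayed short of 2. Cd9, a tetraspanin of lipid-laden macrophages, had medians of 6.69 and 117 RPKM and a difference of -1.90. Hilpda, which blocks breakdown of lipid droplets, was listed in 29 high and 31 low cells, a difference of -1.83. Ndufa4, Dstn, S100a10 and Gpr108 differed by -1.81, -1.71, -1.69 and -1.60. Apart from Dstn in cells 93 to 111 (0.03), these 6 genes were lower in high cells in every stretch. The rule that chose them required the same sign in the other stretches, so agreement there was fixed in advance. Only cells 93 to 111, with 4 low cells, were free to differ.

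**Figure D3:**
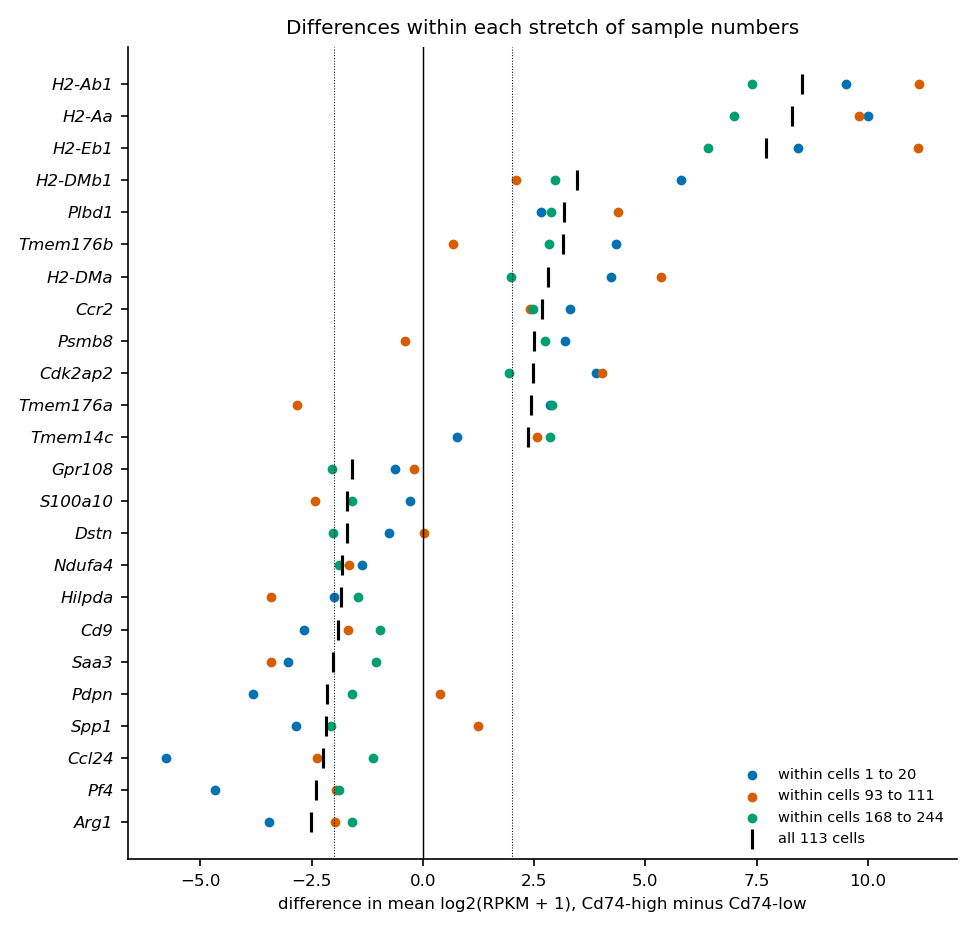
Difference in mean log2(RPKM + 1), Cd74-high minus Cd74-low, within each stretch of sample numbers (points) and over all 113 cells (bars) for the 12 highest and 12 lowest genes chosen by rule. The class II chains lie between 6.41 and 11.16 in every stretch, whereas Psmb8, Tmem176a, Spp1, Pdpn and Dstn change sign in cells 93 to 111. The rule required the same sign in the other stretches, so only cells 93 to 111 were free to differ in sign.

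The threshold of 100 RPKM did not fall on a break in the chain genes. Cells were therefore also read in 4 ranges of Cd74: below 1 (29 cells), 1 to 100 (19), 100 to 1000 (19) and 1000 RPKM or more (46). Mean H2-Aa was 0.39, 2.38, 2.99 and 12.16 in this order. H2-Aa was listed in 10 of 19 cells of the third range, as in the second, and in 46 of 46 of the fourth. H2-Ab1 was listed in 9, 9, 15 and 46 cells, and H2-Eb1 in 1, 7, 7 and 45. High cells below 1000 RPKM of Cd74 thus listed H2-Aa and H2-Eb1 as often as cells at 1 to 100 RPKM, but H2-Ab1 more often. Their means were 2.37 against 1.28 for H2-Eb1 and 5.17 against 2.20 for H2-Ab1. The 19 cells at 100 to 1000 RPKM came from cells 1 to 20 (3) and 168 to 244 (16), with none from 93 to 111. They listed a median of 3055 genes against 2316 in the 46 cells of the top range.

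The other genes fell into patterns along the same ranges. Arg1 averaged 10.12, 7.54, 9.87 and 5.22, so that its low level lay in the top range, where 32 of 46 cells listed it, while all 19 cells at 100 to 1000 RPKM of Cd74 did. Pf4 averaged 9.95, 8.77, 9.93 and 5.91, and Spp1 8.18, 8.76, 8.75 and 5.19. Cd9 averaged 6.15, 5.46, 6.02 and 3.13. Within cells 168 to 244, which hold 20, 15, 16 and 24 cells of the 4 ranges, Arg1 averaged 10.67, 7.28, 9.87 and 6.12, Pf4 11.05, 8.30, 10.46 and 6.35, Spp1 9.47, 9.91, 9.85 and 6.11, and Cd9 6.59, 5.14, 6.01 and 4.32. All 4 were thus lowest in the top range there. Within cells 1 to 20 (7, 2, 3 and 8 cells) Spp1 averaged 5.07, 7.24, 2.86 and 2.65, already lower at 100 to 1000 RPKM. In cells 93 to 111, whose 14 high cells are all in the top range, Spp1 averaged 5.08 in these and 3.85 in the low cells. Plbd1 was highest in the top range, with means of 1.27, 1.52, 2.03 and 5.59. By contrast Ccr2 averaged 5.36, 5.03, 7.06 and 8.25, Cdk2ap2 1.89, 1.39, 3.92 and 4.26, and Tmem14c 3.28, 2.69, 5.71 and 5.28, all already higher between 100 and 1000 RPKM. That range also had the highest median number of genes listed, and the part of gene detection in these 3 values was not tested.

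**Figure D4:**
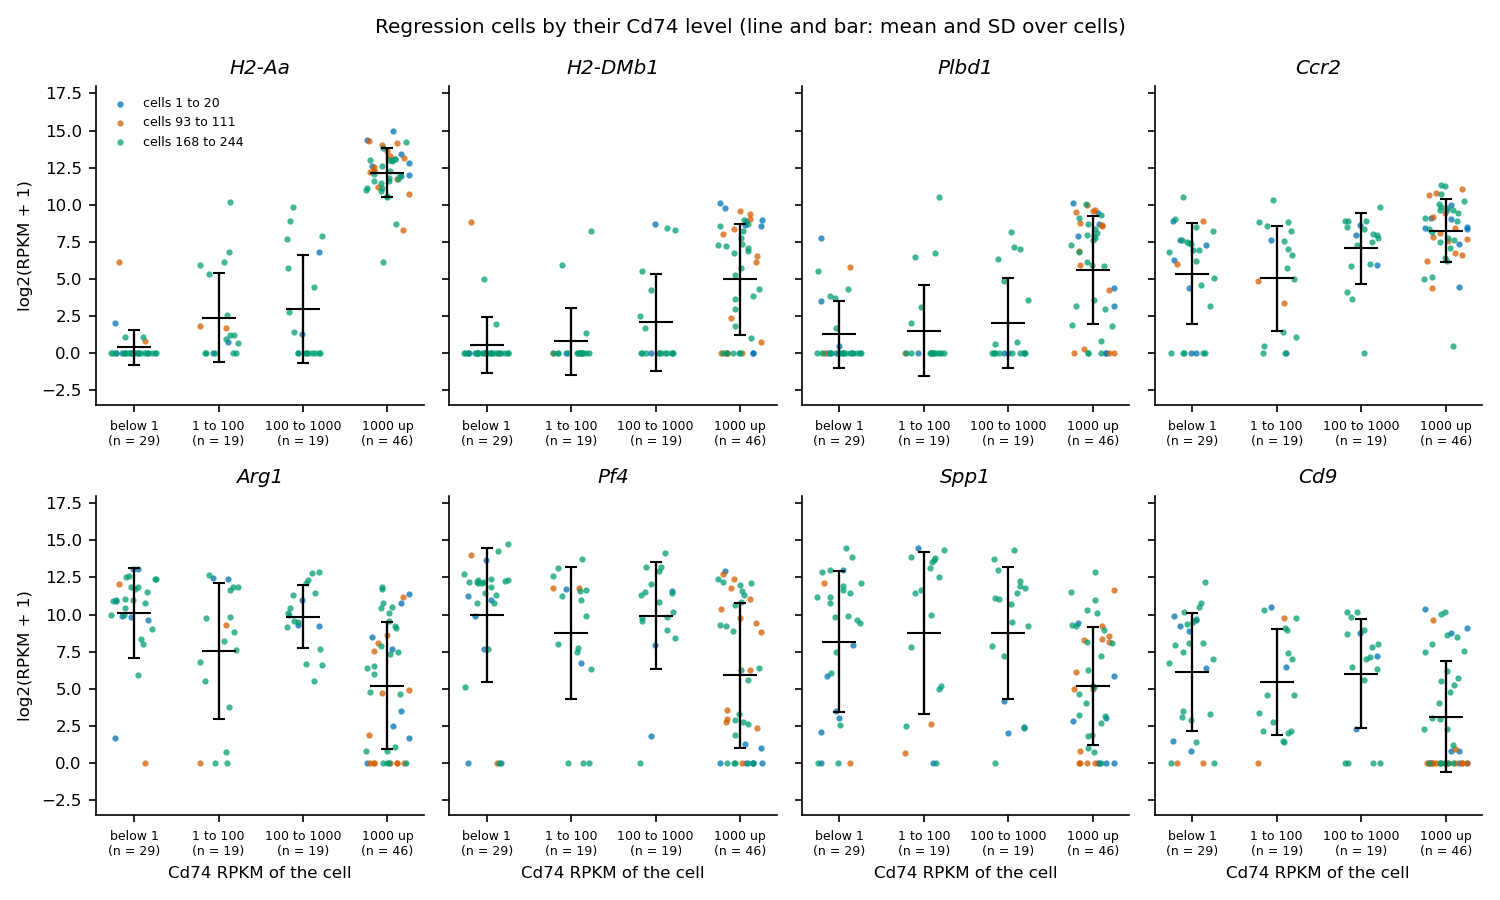
Level of 8 genes as log2(RPKM + 1) in each of 113 regression cells, grouped by the cell's Cd74 RPKM (below 1, 1 to 100, 100 to 1000, and 1000 or more), with colour for the stretch of sample numbers and the line and bar for the mean and SD over cells. H2-Aa steps from a mean of 2.99 to 12.16 only at 1000 RPKM, where the means of Arg1, Pf4, Spp1 and Cd9 over all stretches are lowest, and Ccr2 is higher from 100 RPKM upward.

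High cells were not uniform in Arg1. The 36 high cells with Arg1 at 100 RPKM or more averaged 7.62 for H2-Aa, and the 29 with less averaged 11.80, while Ccr2 averaged 7.73 and 8.11. Across the 65 high cells H2-Aa ranked against Arg1 (rho -0.60) and Spp1 (-0.40) and with Plbd1 (0.50), H2-DMa (0.51) and H2-DMb1 (0.43). These values pool stretches, and ranges of Cd74, that differ in both genes. High cells at 100 to 1000 RPKM of Cd74 averaged 2.99 for H2-Aa and 9.87 for Arg1. Those at 1000 RPKM or more averaged 12.16 and 5.22. The part of the Cd74 range in these values, and in those within stretches below, was not tested. Within the 11, 14 and 40 high cells of the 3 stretches, rho of H2-Aa with Arg1 was -0.79, -0.24 and -0.51, and with Spp1 -0.10, -0.42 and -0.39. The H2-Aa mean with Arg1 at 100 RPKM or more and below it was 8.25 (7 cells) and 13.89 (4) in cells 1 to 20, 11.40 (4) and 12.82 (10) in cells 93 to 111, and 6.83 (25) and 10.56 (15) in cells 168 to 244. The number of genes listed moved with the pooled values: its rho was -0.42 with H2-Aa, 0.37 with Arg1 and 0.41 with Spp1, and its part in them was not tested.

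Other antigen presentation genes differed mostly by less than 2. Of 13 MHC class I presentation genes, 12 were above 0 and 1 was past 2, with a median difference of 0.40, beside 59.4% above 0 and 0.155% past 2 over all genes. The median was 0.51, -0.06 and 0.40 in the 3 stretches. They include H2-K1 (0.71) and H2-D1 (0.72), the class I heavy chains, Tapbp (1.33), which bridges them to the peptide transporter, and B2m (-0.08), their light chain. Interferon gamma induces both presentation pathways: 8 of its 10 measured targets and receptors were above 0, none past 2, with a median of 0.37 (-0.07 in cells 93 to 111) and the highest values for Ifngr2 (0.91) and Gbp3 (0.83). In cells 93 to 111 Ifngr2 differed by -4.26 and Gbp3 by 0.14. Type I interferon genes were split 5 and 5 around 0, from Irf7 at -0.58 to Ifi27l2a at 1.51. Costimulation and checkpoint genes had a median of 0.18, with Cd72 at 0.82 and Cd83 at 0.74. The factors that bind class II promoters, among them Rfx5 (0.21) and Nfyc (0.71), had a median of 0.10 over 11 genes. The medians of the class I and interferon gamma lists lay above the 0.09 of all genes, and those of the last 3 lists lay within 0.1 of it.

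Macrophage programmes of repair, lipid handling and inflammation were divided within themselves. Over all 9026 genes 40.6% were below 0, and counts below 0 are read beside that share. Of 9 alternative activation genes, Arg1 and Ccl24 were below -2, whereas Clec10a (1.03) and Mgl2 (0.72), lectins of the same programme, were above 0, and the median was -0.12. Among 11 repair and matrix genes Arg1 and Spp1 were below -2 and Tgfbi, a TGF-beta-induced matrix protein, was at 1.56. Of 10 acute phase and alarmin genes 9 were below 0 with a median of -0.66, from Saa3 (-2.03), S100a8 (-1.44) and Slpi (-1.38) to Il1rn, the only one above 0 (0.90). Of 12 genes of lipid-laden macrophages 8 were below 0, with a median of -0.61, Cd9 and Gpnmb (-1.17) lowest and Lgals3 (1.05) highest. Of 16 lysosomal genes 12 were below 0 with a median of -0.42, while Ctsh, a cathepsin, was at 1.55. The cholesterol exporters went apart, with Abcg1 at 1.66 and Abca1 at -1.11. Of these medians that of the acute phase list was below 0 in every stretch (-0.93, -0.38 and -0.41). The others were below 0 only in cells 168 to 244: alternative activation had 0.72, 0.17 and -0.47, repair and matrix 0.22, 0.38 and -0.48, lipid-laden macrophages 0.25, 0.38 and -0.58, and the lysosome 0.44, 0.82 and -0.69.

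**Figure D5:**
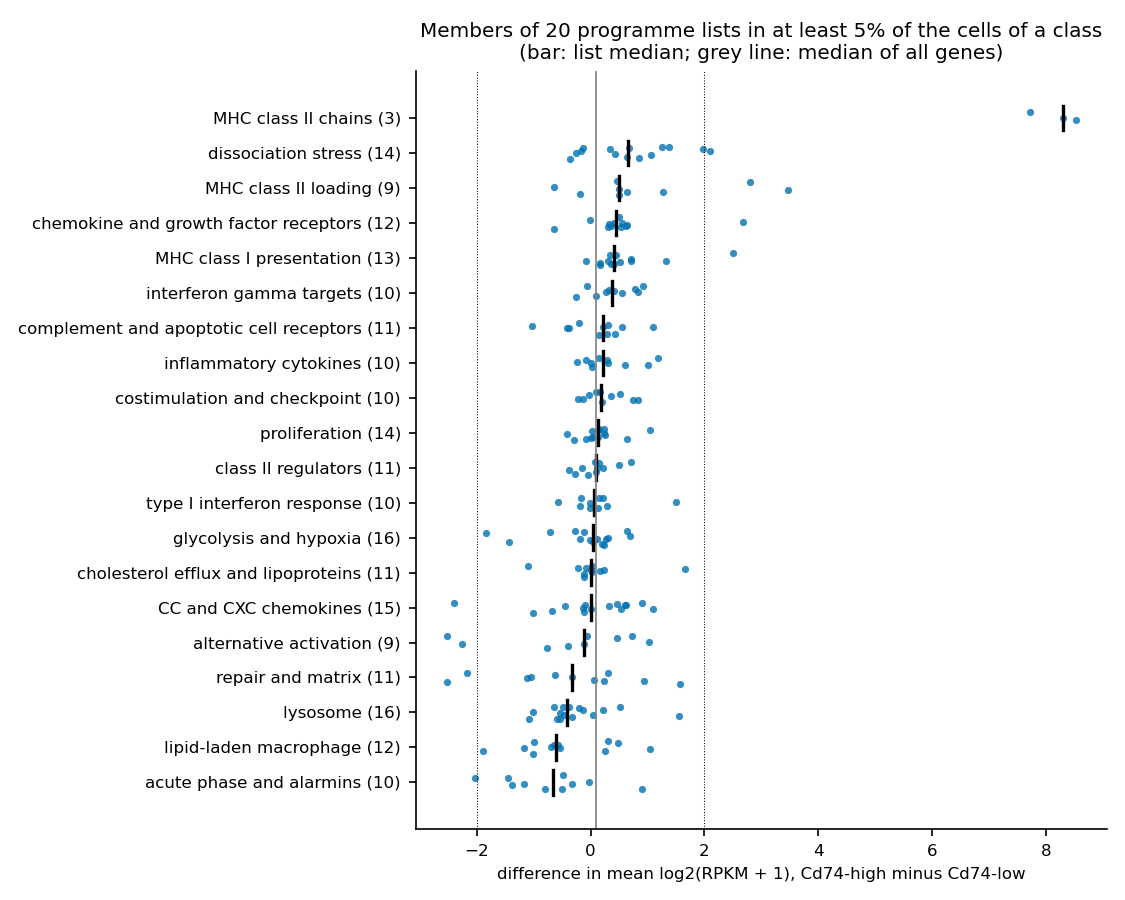
Difference in mean log2(RPKM + 1), Cd74-high minus Cd74-low, for each member of 20 gene lists that was found in 5% or more of either class (points), with the list median (bar), the median of all 9026 genes (grey line) and differences of 2 in either direction (dotted lines). The class II chains stand alone at 7.72 to 8.52, and all other lists have medians between -0.66 and 0.66.

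Among early response genes that tissue digestion can induce, 10 of 14 were above 0, beside 59.4% of all genes, and 1, Btg2, was past 2. Their median was 0.66, and it was 0.89, 1.42 and 0.78 in the 3 stretches. Zfp36, which destabilises cytokine mRNAs, was listed in 65 of 65 high and 39 of 48 low cells, with medians of 327 and 168 RPKM. Fos differed by 1.38 and Junb by 1.25, whereas Jun (-0.17) and Jund (-0.35) were slightly lower. The inflammatory cytokines Tnf (1.18) and Il1b (1.02) headed a list with a median of 0.22. Chemokines were split 8 and 7 around 0, from Cxcl16 (1.09) and Cxcl2 (0.90) down to Ccl8 (-1.02) and Pf4. Of 81 ribosomal protein genes 68 were above 0, with a median of 0.38. The part of the early response and ribosomal genes in the differences above was not tested.

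Some markers that define other class II-bearing cells were at 0 in all 113 cells. Several other dendritic cell genes were more often listed in high cells. At 0 throughout were 1 of 6 common dendritic cell markers, 1 of 9 of type 1 and 1 of 9 of type 2. So were 5 of 8 migratory and 3 of 7 plasmacytoid dendritic cell markers and 4 of 8 B cell markers. They included Cd79a, a B cell receptor component, and Zbtb46, Ccr7 and Clec9a, which mark dendritic cells. Of the others, Itgax was listed in 9 high and 6 low cells, Tcf4 in 41 and 25, Bst2 in 11 and 6, and Cd79b in 4 and 6. Flt3, the dendritic cell growth factor receptor, was listed in 3 high cells at no more than 3.30 RPKM, and Cd209a, of type 2 dendritic cells, in 3 high and 0 low cells with up to 1634 RPKM. No cell of either class listed 3 of the 6 common dendritic cell markers or 3 of the 8 B cell markers. Of 9 type 2 dendritic cell genes 5 passed the 5% filter, with a median difference of 0.72 and 4 above 0. They were led by Clec10a (17 high and 3 low cells) and Tnfsf9 (15 and 7). Of 9 type 1 genes 4 passed, with a median of 0.41 and 3 above 0. Naaa (39 and 19) and Batf3 (12 and 5) headed these. Over all 9026 genes 59.4% were above 0, and 5 or 4 genes are too few to be set apart from that share. By stretch the type 2 median was 1.26, 1.02 and 0.22, and the type 1 median 0.64, -0.40 and 0.48. At least 3 markers of type 1 were listed in 9 high and 3 low cells, and at least 3 of type 2 in 9 and 2. The summed type 2 list ran from 0 through a median of 7.86 to 10.9 on the log2(RPKM + 1) scale in high cells and from 0 through 7.06 to 10.5 in low cells. Neutrophil markers were found in threes in 12 high and 10 low cells. Cells were also kept only if they listed fewer than 3 markers of each dendritic cell, B cell, T cell, NK cell and neutrophil list. In the 39 high and 34 low cells left, 32 genes were higher and 14 lower. Of the 20 genes called in all cells, 17 were among them. These cells could still list some dendritic cell markers, so the part of the dendritic cell genes in the other differences was not tested.

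Monocyte and resident macrophage genes differed in their own ways. Among 7 classical monocyte genes Ccr2 was the only one past 2, while Fn1 (-1.11), Chil3 (-0.77) and Plac8 (-0.43) were lower, and Ly6c2 was listed in 3 high and 4 low cells. All 9 measured genes of resident arterial macrophages were below 0, with a median of -0.38, and Pf4 and Folr2 (-0.90) lowest; over all genes 40.6% were below 0. That median was 0 in cells 1 to 20, -1.35 in cells 93 to 111 and -0.36 in cells 168 to 244. Lyve1 was listed in 6 high and 5 low cells, and Timd4 in none. Genes of cell division had a median of 0.13, and Mki67 was listed in 8 high and 5 low cells.

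Set beside baseline, Cd74-high cells made up a smaller share of the cells in regression and carried chain levels of the same order. At baseline 110 of 125 cells (88.0%, 81.0 to 93.1%) stood at 100 RPKM or more of Cd74, and 97 of those 110 listed all 3 chains. H2-Aa averaged 10.63 ± 3.88 (SD, n = 110 cells) in them against 9.48 in the high regression cells, H2-Ab1 10.18 against 9.90 and H2-Eb1 9.29 against 8.30. All 3 means were lower in regression. The gaps were smaller than the SD over cells, which describes the spread between cells and does not show that the levels match. Other genes were further apart. Arg1 averaged 0.10 in baseline high cells and 6.58 in regression high cells, Fn1 2.81 and 7.49, Thbs1 0.59 and 7.69, and Saa3 0.19 and 4.29. Cd81, a tetraspanin, went the other way at 7.66 and 1.83, as did Cd72, a coreceptor, at 6.78 and 2.04. Apoe averaged 0.34 in baseline high cells, where 8.18% listed it, and 12.07 in regression. Ccr2 averaged 5.13 in baseline high and 1.87 in baseline low cells, so it was higher in the Cd74-high class of both conditions, whereas Arg1 was near 0 in both baseline classes. Condition and stretch of sample numbers cannot be told apart in these values, and the differences between conditions were not tested.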

How the data were processed

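Each of 244 libraries is the SMARTer cDNA of 1 cell captured on a Fluidigm C1 circuit and made into a Nextera XT library, per the labels' protocols, whose text speaks of islet cells while every other label says aortic arch macrophages. The authors deposited 1 table of RPKM values for 24475 genes. The submitters' processing notes list CASAVA 1.8.2, FastQC and the mm10 build; no aligner or quantifier is named in them, in the labels or in the file headers. No molecular identifiers are mentioned in the protocol, and duplicate reads may therefore add noise to a value.

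Columns were matched to samples by the number in the title. The 3 baseline pairs of libraries with a correlation above 0.9 were averaged, and 3 of the 116 regression cells were left out for listing under 1000 genes. Values were averaged as log2(RPKM + 1) per class and subtracted, Cd74-high minus Cd74-low, for genes at 1 RPKM or more in 25% of a class (5% for lists), and a difference of 2 was called. RPKM values are not counts and each condition is 1 sample, so no test was run. Depth was estimated from the step between low RPKM values of 5727 genes with 1 transcript, and kept where 2 gene sets came within 10% of each other.

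The genes named were all class II genes, the 12 highest and 12 lowest, and genes fixed by name. The 2 most different of each of 37 lists were added. For the 12 highest and 12 lowest, the sign had to hold in every stretch with 5 cells of each class. It also had to hold in the log2 ratio of mean RPKM. Other list members, and Uqcrb, are named after their values were seen. The members of the class and the lists were chosen with earlier results of these data known. All 92 named genes had a position in GENCODE vM21 and 66 a RefSeq promoter. The calculation was tested on simulated data. Python 3.11.15, pandas 2.3.3, NumPy 2.4.6 and SciPy 1.17.1 were used. Alternatives covered the pseudocount, filters, scaling, the Cd74 threshold, gene detection, each stretch and cells with dendritic cell, B, T, NK or neutrophil markers.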

Additional observations from a re-analysis of the deposited data

How the results depend on the processing

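All 24 genes chosen for the highest and lowest differences kept their sign in 16 of 16 alternatives that could move a gene's value. They had been chosen to hold their sign in cells 1 to 20, in cells 168 to 244 and in the log2 ratio of mean RPKM. That outcome was therefore partly fixed in advance. The number of genes past 2 depended on the processing, against 14 higher and 6 lower as reported. It was 74 and 24 with a pseudocount of 0.1, 4 and 2 with a pseudocount of 10, 104 and 51 by the log2 ratio of mean RPKM, and 52 and 11 as the mean of the within-stretch differences. It was 150 and 67 without cells 168 to 244 and 27 and 14 against cells below 1 RPKM of Cd74. In cells with few dendritic cell, B, T, NK or neutrophil markers it was 32 and 14. Rescaling each cell to a sum of 1000000 gave 23 higher genes. Lower genes were 15 in cells with at least 2000 genes, 12 at a Cd74 threshold of 1000 RPKM, 3 without cells 1 to 20, and 10 between cells at 1000 RPKM or more and cells below 100, an alternative chosen after seeing the data. Cutting the high cells of each stretch to those with the fewest genes listed, as many as its low cells, left 48 against 48. There were then 13 higher and 8 lower genes, without Btg2, Tmem14c, Ccl24 and Saa3. This did not even out the genes listed in every stretch. In cells 93 to 111 the kept high cells listed 1311 to 1752 genes and the low cells 1557 to 1911. The class II median of 0.95 was 0.60 with a pseudocount of 10, 2.80 with a 50% filter, 0.50 with no filter, 2.47 by the log2 ratio, 0.58 in cells with at least 2000 genes, 1.52 within stretches and 2.09 without cells 168 to 244. The 13 list members past 2 became 21 with a pseudocount of 0.1, 5 with a pseudocount of 10, 30 by the log2 ratio and 27 without cells 168 to 244. The share of high cells, 57.5%, was 68.1% at a threshold of 10 and 40.7% at 1000 RPKM. The pseudocount and ratio alternatives change the scale itself, and without cells 168 to 244 only 25 high and 13 low cells are compared; the cause of the other shifts was not tested. Saa3 and Spp1 were past 2 in 7 of 16 alternatives. With 1 sample a condition and a median depth of 0.948 M reads in high cells, a gene at 0 may have been missed.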

Other observations

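Receptors for growth factors, complement and dying cells were measured in the same cells and are given here as values. Axl, a receptor that binds apoptotic cells through Gas6, was listed in 18 of 65 Cd74-high and 2 of 48 Cd74-low regression cells, with a difference of 1.09 on the log2(RPKM + 1) scale. Mertk, of the same receptor family, was listed in 13 and 11 cells, a difference of 0.14, and Stab1, a scavenger receptor, had a difference of -1.03. Csf1r, the receptor for the main macrophage growth factor, was listed in 63 and 43 cells, with medians of 151 and 124 RPKM. Tgfbr1 (0.64) and Tgfbr2 (-0.65), which pair into 1 receptor, lay on opposite sides of 0. Over the 12 chemokine and growth factor receptors the median difference was 0.45, and over the 11 complement and apoptotic cell receptors it was 0.22, beside 0.09 for all genes tested. By stretch the first median was 1.04, 0.56 and 0.44, and the second 0.93, 1.47 and -0.38, so that it turned in cells 168 to 244.

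Hypoxia and glycolysis genes were divided. Hilpda (-1.83) and Bnip3 (-1.44), a mitophagy protein, were lowest of 16, while the glycolytic enzymes Pkm (0.69) and Pgk1 (0.63) were highest and Tpi1, of the same pathway, was at -0.71. The list median was 0.05. Cx3cr1 (0.62) and Itgal (0.56), of nonclassical monocytes, were above 0, and at least 3 markers of that type were listed in 8 high and 3 low cells. At least 3 markers of T cells, NK cells, mast cells, smooth muscle, endothelium or fibroblasts were listed in none of the 65 high cells (exact 95% upper bound 5.52%).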
